A study of Mus musculus with 24 samples.

Results

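The comparison set 14 libraries of treated APP/PS1 mice against 5 libraries of untreated APP/PS1 mice and asked which transcripts of the dentate gyrus moved when the 3 treatments were averaged. APP/PS1 is a transgenic mouse line that carries human-derived APP and presenilin 1 transgenes and forms amyloid plaques. The treated libraries comprised 4 from APP/PS1 mice dosed orally with BCI-838 (5 mg/kg each day over 1 month), 5 from APP/PS1 mice with free access to a running wheel for 1 month, and 5 from APP/PS1 mice given both. The 5 control libraries came from APP/PS1 mice with neither drug nor wheel, which per the design text received the vehicle where no drug was given. BCI-838 is a prodrug of an antagonist of the group II metabotropic glutamate receptors, which are encoded by Grm2 and Grm3. The members were all APP/PS1 columns of the raw count table, 19 of the 24 libraries of the series. The 5 wild-type (WT, C57BL6/J) libraries stood outside the comparison. Each library is described as 1 mouse, whose dentate gyrus was frozen before RNA extraction. Age and sex were not used here.

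The dentate gyrus is the entry gate of the hippocampus and is built mainly of granule neurons, and new granule neurons are added to it in adult life. Running raises this neurogenesis in mice, and group II receptor antagonists have been studied for the same effect. The tissue lies close to the ventricle, the choroid plexus, the meninges and, further toward the midline, the habenula. The choroid plexus is an epithelium that secretes cerebrospinal fluid and transthyretin. The meninges are made of fibroblasts and their matrix. The medial habenula is a small cholinergic nucleus of the epithalamus.

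Library totals in the deposited table lay between 51407295 and 64632882 counts, and 18155 of 26667 genes had enough counts to be tested. Levels are given in CPM, with library sizes corrected by TMM. The granule neuron list summed to 872 to 2195 CPM in treated libraries and 609 to 2240 CPM in control libraries, and its marker Prox1 was present in every library. The choroid plexus gene Ttr exceeded 100 CPM in 1 of 14 treated libraries (both, replicate 5) and in 3 of 5 control libraries (replicates 2, 4 and 5). The summed CPM of 20 choroid plexus and ependyma genes had a median of 220.7 in treated libraries (range 133.2 to 725.9) and 826.2 in controls (range 250.6 to 2619). The 2 groups differed in this sum (two-sided exact permutation test over 11628 regroupings, p = 0.00267, 0.00946 after Benjamini-Hochberg adjustment over 5 library measures). The list was chosen with earlier results of these data known, so this p is no independent test. Control replicates 2 and 4 also held over 10 CPM of the habenula gene Gpr151. The summed dorsal midbrain and thalamus list had a median of 190.8 CPM in treated libraries and 279.4 CPM in controls (exact permutation adjusted p = 0.347). Results that rest on these libraries are given below with and without them. Without the libraries over 100 CPM of Ttr, control replicates 1 and 3 were the only controls left. In whole tissue, fewer cells of a type and less RNA per cell cannot be told apart.

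Averaged over the 3 treatments, 33 genes fell and 0 rose, at a Benjamini-Hochberg adjusted p under 0.05 in the quasi-likelihood F test of edgeR, which is 0.182% of the genes tested. Most of the 33 stood on lists of genes of structures near the dentate gyrus. Of them, 7 belonged to the choroid plexus list, 7 to a list of motile cilia genes, 6 to a list of medial habenula genes and 3 to a list of leptomeningeal and matrix genes. The remaining 10 included the sulfatase gene Sulf1, which had the smallest p of all genes. The cilia, habenula and leptomeninges lists were drawn up after the values had been seen, so their counts describe the calls and test nothing. The choroid plexus list was chosen with earlier results of these data known, and its count is no independent support. At an unadjusted p under 0.05, 748 genes were lower (4.12%) and 265 higher (1.46%). DESeq2 called 156 genes, of which 154 were lower and included all 33, and limma voom called 3, namely Sulf1, Akd1 and Slc13a4.

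No treatment on its own gave a call in this fit, and the 3 treatments share the 5 control libraries. The edgeR test called 0 genes for BCI-838 (0%; 1896 or 10.4% at an unadjusted p under 0.05), 0 for exercise (0%; 968 or 5.33%) and 0 for both together (0%; 1941 or 10.7%). The count of 33 also moved with single libraries. It came to 154 without control replicate 1 and 130 without control replicate 3, the controls lowest in Ttr. It was 128 without replicate 5 of the combined group. It was 1 without control replicate 2 or 4, without any 1 of the 4 BCI-838 libraries, without exercise replicate 1, 3 or 5, and without replicate 1 or 4 of the combined group. It was 2 without replicate 3 and 18 without replicate 2 of that group, 6 without exercise replicate 2 and 7 without exercise replicate 4. Without control replicate 5 it was again 33, of which 18 were shared.

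**Figure D1:**
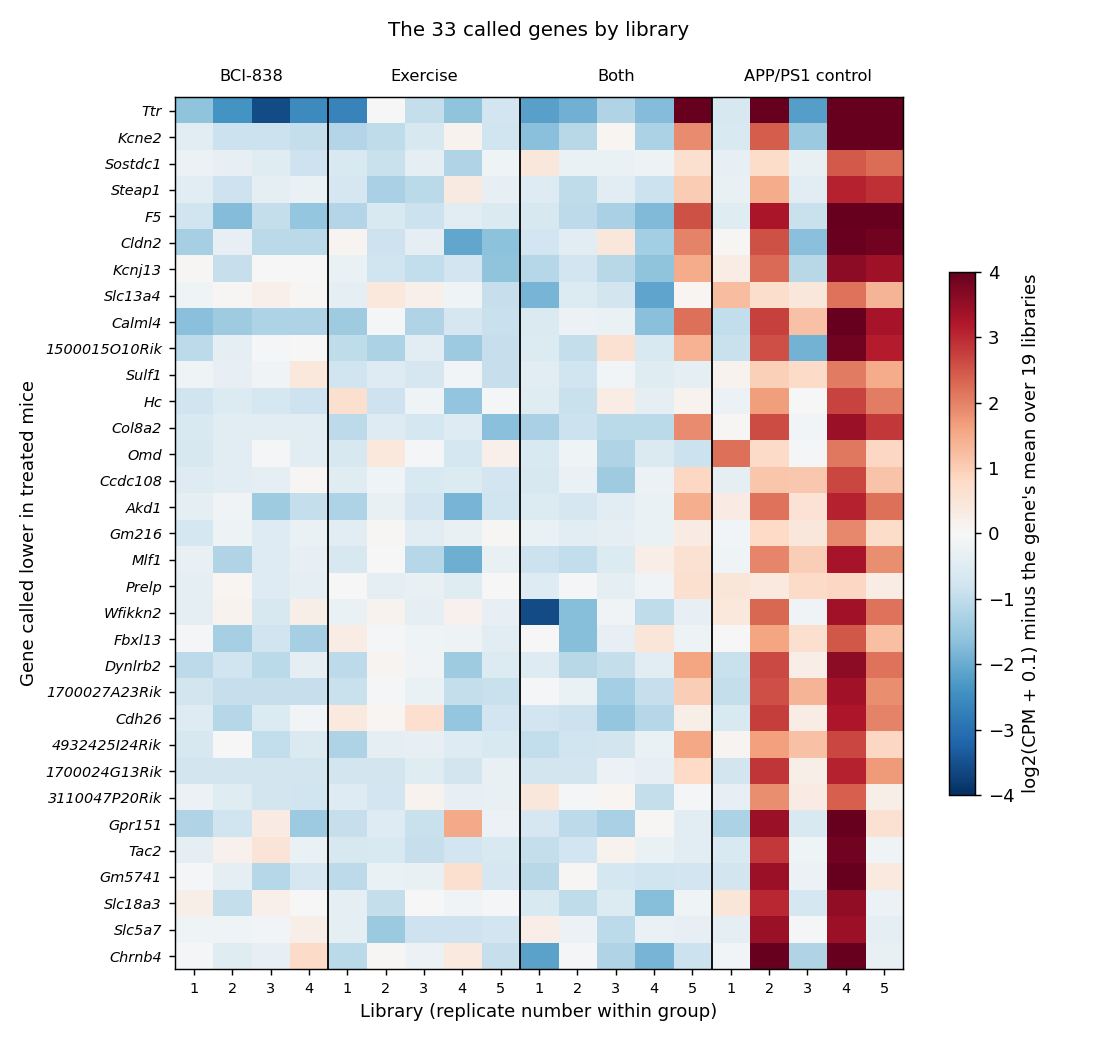
Each row is 1 of the 33 called genes and each column 1 of the 19 libraries, ordered BCI-838, exercise, both and APP/PS1 control. Colour gives log2(CPM + 0.1) minus the gene's mean over the 19 libraries, with the scale ending at 4 in either direction; control replicates 2, 4 and 5 and replicate 5 of the combined group are high in most choroid plexus genes, and control replicates 2 and 4 in the habenula genes.

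Sulf1 (chr1:12692197-12861192, plus strand) encodes an extracellular sulfatase that removes 6-O-sulfate groups from heparan sulfate, and so alters how Wnt, FGF and BMP ligands bind it. It measured 5.33, 4.78, 5.50 and 8.21 CPM in the BCI-838 libraries, 3.47, 4.20, 3.75, 5.60 and 3.16 CPM in the exercise libraries and 4.53, 3.48, 5.58, 4.29 and 4.71 CPM in the combined group, against 6.75, 11.9, 10.4, 26.2 and 17.2 CPM in APP/PS1 controls. BCI-838 replicate 4 lay above control replicate 1, and the other 13 treated libraries lay below every control. The means were 4.76 ± 1.29 CPM in treated libraries and 14.5 ± 7.53 CPM in controls (SD, n = 14 and 5), a log2 fold change of -1.60 with a standard error of 0.21 (edgeR adjusted p = 0.00798), or 3.04-fold lower. The separate log2 fold changes were -1.28 for BCI-838, -1.84 for exercise and -1.68 for both. Sulf1 stayed called when any 1 of the 19 libraries was left out, with log2 fold changes between -1.80 and -1.28. The call was lost without the 4 libraries over 100 CPM of Ttr (-0.85, edgeR adjusted p = 0.618). The same held with a covariate built from the choroid plexus list (-0.92, edgeR adjusted p = 0.999). The call was also lost without the 2 libraries over 10 CPM of Gpr151 (-1.26, edgeR adjusted p = 0.245) and without the exercise group (-1.49, edgeR adjusted p = 0.229). The part of choroid plexus RNA in the Sulf1 difference was not tested beyond these values. Its paralog Sulf2 had a log2 fold change of -0.10. Sulf1 was the single call among 33 measured heparan sulfate enzymes and core proteins, beside 0.182% of all tested genes. Of that list 19 were higher and 14 lower, with a median of 0.01.

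The called meningeal and matrix genes were Slc13a4, Prelp and Omd. Slc13a4 (chr6:35267953-35308126, minus strand), a sodium-sulfate cotransporter, was the single gene of 18155 (0.00551%) whose 14 treated libraries all lay below the 5 controls, and no gene (0%) lay above in all. It measured 4.67, 5.38, 5.98 and 5.37 CPM with BCI-838, 3.92, 7.06, 6.09, 4.65 and 2.71 CPM with exercise and 1.37, 3.51, 3.08, 1.13 and 5.52 CPM with both, against 12.5, 8.55, 7.13, 24.1 and 13.4 CPM in controls. The gap between the groups was narrow, from exercise replicate 2 to control replicate 3. Its log2 fold change was -1.63 (SE 0.30, edgeR adjusted p = 0.037), made up of -1.30 for BCI-838, -1.43 for exercise and -2.17 for both. The 5 controls are 1 of 11628 possible sets of 5 libraries, so 1 non-overlapping gene among 18155 does not set the groups apart.

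Prelp (chr1:133910304-133930102, minus strand) and Omd (chr13:49582462-49592612, plus strand) encode small leucine-rich proteoglycans of the extracellular matrix. Prelp measured 15.4, 21.1, 13.98 and 15.5 CPM with BCI-838, 20.4, 15.5, 16.3, 14.3 and 19.9 CPM with exercise and 13.9, 19.02, 15.5, 18.1 and 31.2 CPM with both, against 28.0, 26.2, 34.5, 35.7 and 24.6 CPM in controls. All treated libraries but replicate 5 of the combined group lay below the controls, and the log2 fold change was -0.75 (SE 0.15, edgeR adjusted p = 0.0458). Omd was rare, at 0.040 to 0.330 CPM in treated libraries, against 1.39, 0.445, 0.211, 1.29 and 0.476 CPM in controls, and fell by 2.36 on the log2 scale (SE 0.38, edgeR adjusted p = 0.0334). The exons of Prelp overlap Gm15851 on the opposite strand, and the reads of both may be mixed.

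For these matrix genes the values stayed similar where Ttr-rich libraries were left out, although no call held. Without those 4 libraries the log2 fold change was -0.89 for Prelp (edgeR adjusted p = 0.14), -2.40 for Omd (edgeR adjusted p = 0.478) and -1.33 for Slc13a4 (edgeR adjusted p = 0.618). In that fit the single call of 18464 genes (0.00542%) was Slc6a13, a GABA transporter of the leptomeninges, with a log2 fold change of -1.85 (edgeR adjusted p = 0.0145). With all libraries Slc6a13 was not called (-1.09, edgeR adjusted p = 0.172). It measured 6.05, 7.98, 5.45 and 5.35 CPM with BCI-838, 5.48, 7.42, 9.30, 6.72 and 4.44 CPM with exercise and 2.52, 3.77, 3.60, 1.77 and 7.001 CPM with both, against 21.2, 6.36, 14.4, 10.9 and 4.37 CPM in controls. The controls highest in Slc6a13 were replicates 1 and 3, which are those lowest in Ttr. Of 15 leptomeningeal and matrix genes, 14 were lower with a median log2 fold change of -0.75, against 0.0041 over all tested genes. That median was -0.37 for BCI-838, -0.47 for exercise and -1.41 for both, and -1.02 without the Ttr-rich libraries. The list summed to 158.8 to 736 CPM in treated libraries, against 1129, 525, 592, 1082 and 414 CPM in controls. Without the Ttr-rich libraries, control replicates 1 and 3 were the only controls, and replicate 1 had the highest sum of all libraries. The part of that library in the values of that fit was not tested. The list of mural cells and meningeal fibroblasts, which also holds Slc13a4 and Ogn, had 8 of 18 genes higher and a median of -0.01, and 4 of 18 and -0.21 without those libraries. Ogn, another leucine-rich proteoglycan, and Igf2, a growth factor of meninges and choroid plexus, had log2 fold changes of -1.15 and -0.96 (edgeR adjusted p = 0.0826 and 0.147).

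**Figure D2:**
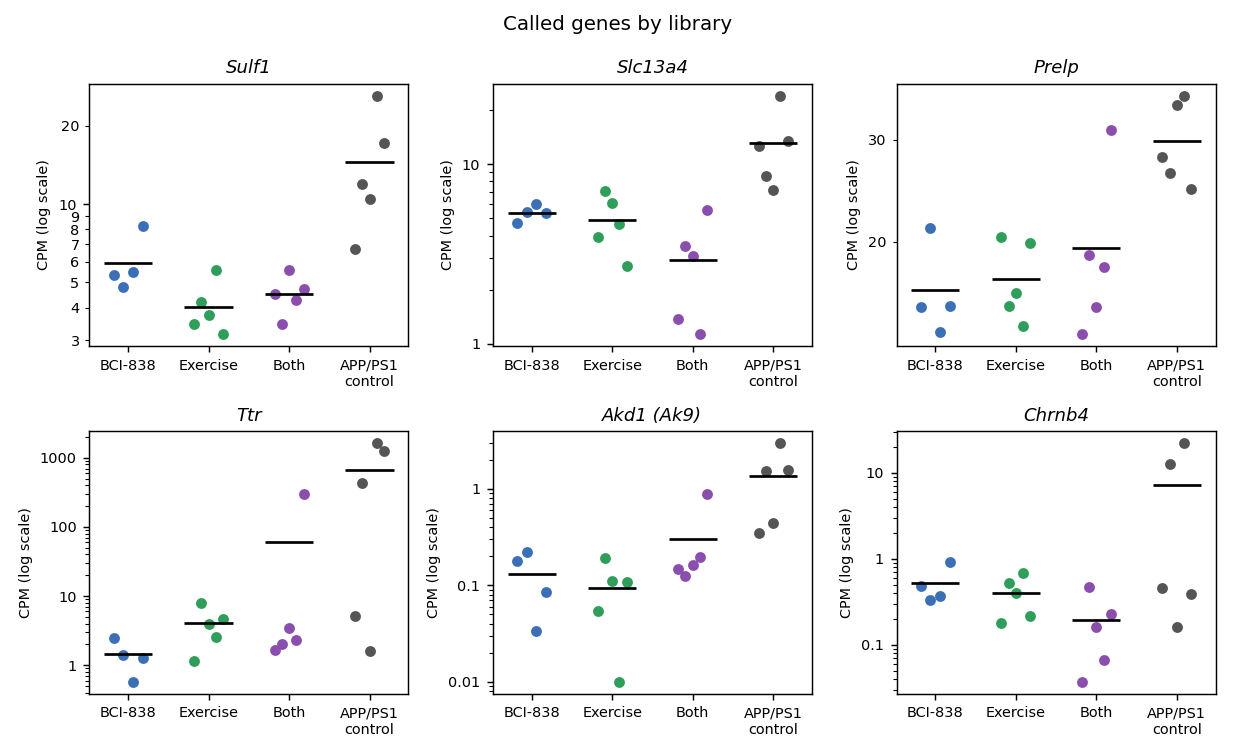
CPM on a log scale for 6 called genes, with 1 point per library and a line at the mean of each group, for BCI-838, exercise, both and APP/PS1 control. Sulf1, Slc13a4 and Prelp are higher in most or all of the 5 controls, while the Ttr and Chrnb4 means of the controls rest on 3 and 2 libraries; the exercise library with 0 counts of Akd1 is drawn at the bottom of its panel.

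Genes of the choroid plexus came next, led by the largest fold change of all tested genes. Ttr, the thyroid hormone and retinol carrier of cerebrospinal fluid, measured 2.51, 1.41, 0.574 and 1.27 CPM with BCI-838, 1.16, 7.91, 4.01, 2.53 and 4.64 CPM with exercise and 1.67, 2.02, 3.40, 2.29 and 297 CPM with both, against 5.07, 426, 1.62, 1620.2 and 1272 CPM in controls. Control replicates 1 and 3 lay within the range of the treated libraries, so the groups overlapped. Ttr fell by 6.55 on the log2 scale (SE 1.21, edgeR adjusted p = 0.038). The separate values were -8.85 for BCI-838, -7.36 for exercise and -3.44 for both, whose replicate 5 held the 297 CPM.

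Among the other called genes of the list, F5 and Kcne2 were high in the same libraries. F5, coagulation factor V, measured 0.131 to 4.46 CPM in treated libraries, against 0.458, 7.47, 0.325, 15.6 and 20.2 CPM in controls (log2 fold change -4.23, SE 0.74, edgeR adjusted p = 0.037). Its exons overlap Gm16548 on the opposite strand. Kcne2, a potassium channel subunit of the choroid plexus epithelium, measured 0.0742 to 1.97 CPM in treated libraries, against 0.260, 2.89, 0.0973, 11.2 and 8.71 CPM in controls (log2 fold change -3.83, edgeR adjusted p = 0.0381). In both genes the highest treated library was replicate 5 of the combined group. Kcnj13, an inward rectifier potassium channel, Cldn2, a tight junction claudin, and Sostdc1, a secreted BMP and Wnt antagonist, fell, with log2 fold changes of -3.14, -3.83 and -1.77 (edgeR adjusted p = 0.0381, 0.0458 and 0.0458). Calml4, a calmodulin-like protein, fell by 4.60 (SE 0.77, edgeR adjusted p = 0.0345).

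Of the 20 choroid plexus and ependyma genes, 0 were higher and 20 lower, with a median log2 fold change of -3.80 against 0.0041 over all genes. The medians were -4.23 for BCI-838, -4.17 for exercise and -2.58 for both. Without the 4 Ttr-rich libraries the median was -0.34, and 5 of 19 measured members were higher. Ttr itself then had a log2 fold change of -0.49, Kcne2 0.37 and F5 -0.44. Kcnj13, Cldn2 and Sostdc1 had -0.57, -0.18 and -0.05, while Calml4 had -2.46. None of these genes was called in that fit. Those libraries were picked by Ttr, so smaller values for Ttr and other genes of the list follow in part from the cut. 

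Genes of motile cilia, the beating organelles of ependymal cells, formed a group of similar size. Akd1 (current symbol Ak9, chr10:41303432-41433569, plus strand), an adenylate kinase, measured 0.177, 0.224, 0.034 and 0.086 CPM with BCI-838, 0.054, 0.191, 0.110, 0 and 0.108 CPM with exercise and 0.148, 0.124, 0.162, 0.197 and 0.892 CPM with both, against 0.351, 1.54, 0.439, 2.96 and 1.57 CPM in controls. All treated libraries but replicate 5 of the combined group lay below the controls, and Akd1 fell by 3.14 on the log2 scale (SE 0.53, edgeR adjusted p = 0.0345). Mlf1, named after myeloid leukemia, measured 0 to 0.493 CPM in treated libraries, against 0.244, 1.39, 0.666, 3.69 and 1.30 CPM in controls (log2 fold change -3.02, SE 0.51, edgeR adjusted p = 0.0345). Control replicate 4 was the highest library in each.

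The other 5 called cilia genes were Ccdc108 (Cfap65), Gm216 (Catip), Dynlrb2, 4932425I24Rik (Maats1) and 1700027A23Rik (Pifo). Ccdc108, a protein of the axoneme, measured 1.52 to 7.53 CPM in treated libraries, against 3.19, 9.12, 8.92, 27.4 and 9.36 CPM in controls (log2 fold change -1.80, edgeR adjusted p = 0.037). Gm216 measured 0.920 to 1.99 CPM in treated libraries, against 1.44, 2.78, 2.15, 6.13 and 2.66 CPM in controls (log2 fold change -1.24, edgeR adjusted p = 0.037). Apart from control replicate 1, the controls lay above all treated libraries in both. Dynlrb2, a light chain of dynein, 4932425I24Rik and 1700027A23Rik had log2 fold changes of -3.29, -2.08 and -3.84 (edgeR adjusted p = 0.0381, 0.0458 and 0.0334). Ccdc108 and 4932425I24Rik share exonic bases with a gene on the opposite strand.

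Of 19 measured cilia genes, 0 were higher, and the median log2 fold change was -1.62 for all libraries and -0.76 without the 4 Ttr-rich ones. Foxj1, the transcription factor that switches on the motile cilia programme, was not called. It ranged from 3.58 to 12.3 CPM in treated libraries, against 8.62, 12.4, 9.05, 26.6 and 11.02 CPM in controls (log2 fold change -1.09, edgeR adjusted p = 0.0701). Leaving out the Ttr-rich libraries gave -1.66 for Akd1 and -0.56 for Foxj1, and the part of ependymal or choroid plexus RNA in these values was not tested further.

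Promoters of the cilia genes were examined because cilia genes are known as targets of RFX factors, which bind the X-box. Its conserved arm GTTGCCA was searched on both strands in the RefSeq GRCm38.p6 promoters, from 250 bases before to 50 after each start. It occurred in 5 of 29 promoters of called genes, and in 4.38% of all 32851 promoters. The 5 promoters belonged to 5 of the 27 called genes that had a promoter sequence. The 5 genes were Catip, Maats1, Mlf1, Pifo and Wfikkn2, of which the first 4 are on the cilia list. The forkhead motif GTAAACA occurred in 1 of the 29 promoters of called genes (3.65% of all promoters) and the OTX motif TAATCC in 3 (7.06%). The stretches below run 5′ to 3′ on the strand of the gene and end at or before the transcript start of the promoter entry. Capitals mark this arm, which begins 18, 105 and 13 bases before that start. For Catip and Pifo the gene as annotated, chr1:74362113-74369323 and chr3:105996957-106014646, also has a start further upstream. For Pifo the capitals show its reverse complement.
Catip, chr1:74362087-74362134, plus strand: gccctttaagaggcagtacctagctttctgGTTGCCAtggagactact
Mlf1, chr3:67373962-67374028, plus strand: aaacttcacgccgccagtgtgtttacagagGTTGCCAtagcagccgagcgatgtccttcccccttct
Pifo, chr3:106001498-106001540, minus strand: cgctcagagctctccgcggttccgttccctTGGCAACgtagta
These matches describe the letters of the 3 promoters and are no evidence of binding.

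The habenula genes rested on 2 control libraries. Chrnb4 (chr9:55028154-55048953, minus strand), the β4 subunit of the nicotinic acetylcholine receptor, measured 0.478, 0.327, 0.371 and 0.924 CPM with BCI-838, 0.181, 0.520, 0.404, 0.680 and 0.216 CPM with exercise and 0.037, 0.465, 0.162, 0.066 and 0.228 CPM with both, against 0.458, 12.6, 0.162, 21.9 and 0.388 CPM in controls. Control replicates 2 and 4 stood far above the other 17 libraries, and the other 3 controls lay within the treated range. Its log2 fold change was -4.35 (SE 0.74, edgeR adjusted p = 0.036), and 0.03 without the 2 libraries. Gpr151, an orphan receptor of habenular neurons, measured at most 4.78 CPM in treated libraries (exercise replicate 4), against 0.611, 18.3, 1.02, 72.4 and 2.48 CPM in controls, with a log2 fold change of -3.95 (SE 0.72, edgeR adjusted p = 0.037).

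The remaining called habenula genes act in cholinergic and peptide signalling. Slc5a7, the choline transporter, measured 0.243 to 1.04 CPM in treated libraries, against 0.641, 10.3, 0.812, 10.2 and 0.634 CPM in controls (log2 fold change -2.83, edgeR adjusted p = 0.037). Tac2, the neurokinin B precursor, measured 1.91 to 5.52 CPM in treated libraries, against 2.46, 27.9, 3.40, 56.2 and 3.44 CPM in controls (log2 fold change -2.66, edgeR adjusted p = 0.037). In both genes control replicates 2 and 4 were the outlying libraries. Slc18a3, the vesicular acetylcholine transporter, and 3110047P20Rik (Nwd2) fell, with log2 fold changes of -3.16 and -1.58 (edgeR adjusted p = 0.0408 and 0.0458). The list of 11 had 0 genes higher and a median of -2.83, which became -0.15 without the Ttr-rich libraries. Chat, which makes acetylcholine, and the transcription factor Pou4f1 were not called (-3.04 and -3.36, edgeR adjusted p = 0.071 and 0.125). Without the 2 Gpr151-rich libraries edgeR called 0 of 18235 genes (0%; 517 at an unadjusted p under 0.05).

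Of the other called genes, several are known from the choroid plexus although they were not on its list. Col8a2, a collagen VIII chain, measured 0.288 to 4.50 CPM in treated libraries, against 1.18, 7.42, 1.06, 13.6 and 8.76 CPM in controls (log2 fold change -2.91, SE 0.53, edgeR adjusted p = 0.037). Wfikkn2, a secreted antagonist of GDF8 and GDF11, measured 1.17, 1.69, 0.945 and 1.81 CPM with BCI-838, 1.27, 1.70, 1.14, 1.72 and 1.19 CPM with exercise and 0.037, 0.403, 1.38, 0.704 and 1.20 CPM with both, against 2.08, 7.83, 1.36, 16.7 and 7.26 CPM in controls (log2 fold change -2.63, SE 0.46, edgeR adjusted p = 0.037). For Wfikkn2 all controls but replicate 3 lay above every treated library. The secreted factor 1500015O10Rik (Ecrg4) had a log2 fold change of -3.06 and Hc, a complement component, of -2.70 (edgeR adjusted p = 0.0381 and 0.0439). Steap1, of a metalloreductase family, had -2.98, Cdh26, a cadherin, -3.33, and the F-box gene Fbxl13 -2.24 (edgeR adjusted p = 0.0408, 0.0408 and 0.0458). Hc and Fbxl13 share exonic bases with a gene on the opposite strand. Gm5741 and 1700024G13Rik, named here because they were called, had -3.48 and -5.70, and 1700024G13Rik had 0.0 to 0.190 CPM in treated libraries.

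Fits that allowed for the neighbouring tissue left few calls. A covariate was built from the choroid plexus list, with log2 levels averaged over its genes. With this covariate, edgeR called 0 genes (0%; 577 or 3.18% at an unadjusted p under 0.05). Omd had the smallest p in the lower direction and kept its log2 fold change (-2.39, edgeR adjusted p = 0.999). The next were Pknox2 (-0.40), Arhgap25 (-1.39), Kcnf1 (-0.93) and Doc2a (-0.73), each of which was highest in control replicate 3, at 68.8, 11.4, 152 and 40.1 CPM. The smallest p in the higher direction belonged to Parp8 (0.51), Abcb4 (0.51), Onecut2 (0.69), Map4k5 (0.34) and Galnt4 (0.38), all with edgeR adjusted p = 0.999. Without the Ttr-rich libraries 1282 genes (6.94%) had an unadjusted p under 0.05.

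**Figure D3:**
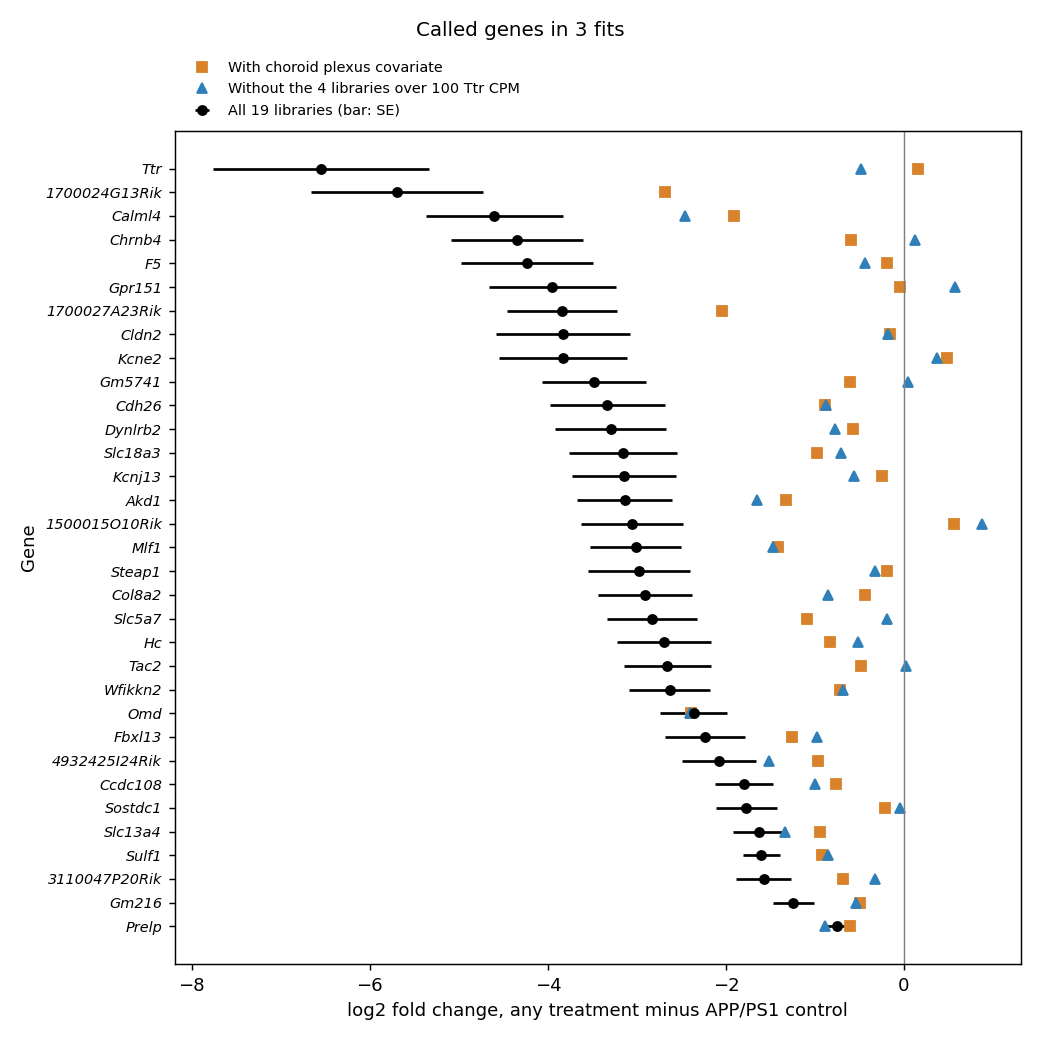
Log2 fold changes, any treatment minus APP/PS1 control, of the 33 called genes in 3 fits: all 19 libraries (black, bars give the standard error), with the choroid plexus covariate (orange) and without the 4 libraries over 100 CPM of Ttr (blue). Most values lie closer to 0 in the orange and blue fits, with Ttr at 0.16 in the orange and -6.55 in the black one, while Omd stays near -2.4 and Prelp between -0.89 and -0.60; 1700024G13Rik and 1700027A23Rik were not tested without the 4 libraries.

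No gene rose past the threshold. Slc40a1, which encodes the iron exporter ferroportin, came nearest, with 8.42, 9.81, 9.30 and 9.22 CPM with BCI-838, 9.26, 9.54, 10.7, 9.85 and 10.4 CPM with exercise and 8.98, 8.35, 10.8, 9.94 and 8.92 CPM with both, against 7.57, 6.86, 8.58, 6.82 and 7.90 CPM in controls. Control replicate 3 reached above the lowest treated libraries, and the log2 fold change was 0.33 (SE 0.08, edgeR adjusted p = 0.0701). DESeq2 called Slc40a1 and Bhlhe41 as higher. With 1 library left out, edgeR called Slc40a1 and Tbc1d23 as higher without control replicate 3, Igf1 without control replicate 1 and Bhlhe41 without replicate 5 of the combined group. Bhlhe41, a transcriptional repressor of the circadian clock, had log2 fold changes of 0.97 for BCI-838, 0.23 for exercise and 0.61 for both, and 0.60 on average (edgeR adjusted p = 0.183). Of the other genes with a small p, Tbc1d23 and Abcb4 had 0.21 and 0.38, Parp8 and Shroom2 0.35 and 0.28, and Cass4 and Cd300a 0.67 and 0.66 (edgeR adjusted p between 0.149 and 0.271). Bub1, a kinase of the mitotic checkpoint, measured 0.145 to 0.647 CPM in treated libraries, against 0.061, 0.148, 0.227, 0.073 and 0.035 CPM in controls (fitted ratio 2.83, SE 0.43 on the log2 scale, edgeR adjusted p = 0.222).

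Penk, the enkephalin precursor, measured 42.1, 230.1, 219 and 83.8 CPM with BCI-838, 25.5, 30.7, 22.03, 22.3 and 31.3 CPM with exercise and 67.6, 26.7, 213, 79.0 and 31.7 CPM with both, against 32.5, 20.7, 14.4, 23.5 and 28.1 CPM in controls. High libraries occurred in both groups that received the drug, while the exercise libraries lay within the range of the controls. Its log2 fold change was 2.59 for BCI-838, 0.14 for exercise and 1.81 for both, and 1.51 averaged (SE 0.45, edgeR adjusted p = 0.245). The difference among the 3 treated groups was not called (edgeR adjusted p = 0.126). The exons of Penk overlap A830012C17Rik on the opposite strand.

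**Figure D4:**
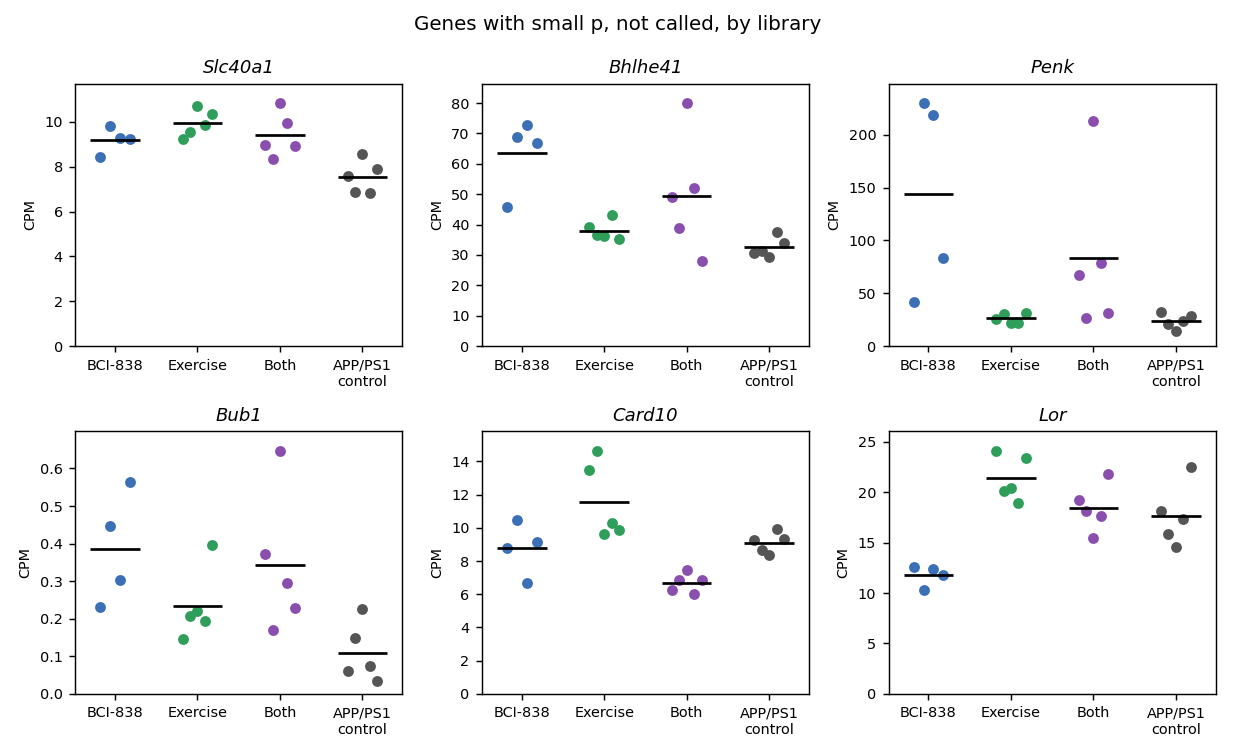
CPM on a linear scale for 6 genes that were not called, with 1 point per library and a line at the group mean, for BCI-838, exercise, both and APP/PS1 control. Slc40a1, Bhlhe41, Penk and Bub1 had small p for any treatment, with Penk over 200 CPM in 3 libraries that received BCI-838; Card10 and Lor had small p for differences among the treated groups.

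The 3 treated groups were also compared with each other, in a contrast that leaves out the control mean. The controls still entered the scaling and the estimate of the spread. The edgeR F test called 0 genes (0%), with 3846 (21.2%) at an unadjusted p under 0.05, and limma voom called 4712. With the mean log2 CPM of the dorsal midbrain list as covariate, edgeR called 0, and 2114 genes had an unadjusted p under 0.05. Without exercise replicate 4 the edgeR count was 611, without replicate 2 of the combined group 69, and without replicate 3 of that group or control replicate 3 or 5 it was 1. The smallest p belonged to Lor, which measured 12.5, 10.3, 12.4 and 11.8 CPM with BCI-838, 24.1, 20.1, 20.4, 18.9 and 23.4 CPM with exercise and 19.2, 18.1, 15.4, 17.7 and 21.8 CPM with both, against 18.1, 15.9, 14.5, 17.4 and 22.5 CPM in controls (edgeR adjusted p = 0.0744). Lor, the gene of the cornified envelope protein loricrin, was lowest in the 4 BCI-838 libraries. It was picked for its small p in this contrast, so that separation is no independent support. How many genes separate in this way was not counted. Slc25a28, 5033430I15Rik, Card10, Exosc4 and Zdhhc12 followed (edgeR adjusted p = 0.117 each). Card10, a signalling scaffold, measured 9.62 to 14.6 CPM with exercise and 6.04 to 7.44 CPM with both, against 8.34 to 9.90 CPM in controls.

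The targets of the model and of the drug gave no call. App averaged 3551 ± 448 CPM in treated libraries and 3388 ± 372 CPM in controls (SD, n = 14 and 5; log2 fold change 0.06, SE 0.09). Prnp, whose promoter is commonly used for such transgenes, had a log2 fold change of 0.03 (SE 0.08). These counts cannot separate transgene from mouse reads. Grm2 had a log2 fold change of -0.33 (SE 0.22) and Grm3 of 0.08 (SE 0.16). Without the Ttr-rich libraries, against control replicates 1 and 3 alone, the values were 0.17 for Grm2 and -0.31 for Grm3. Neither kept its direction. All 4 genes had an edgeR adjusted p of 0.999.

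Genes of neurogenesis were described as lists. Of 18 stem and progenitor genes 7 were higher (median log2 fold change -0.07), of 18 proliferation genes 8 (median -0.03) and of 21 neuroblast and immature neuron genes 9 (median -0.02), against 51.5% of all tested genes. Without the Ttr-rich libraries 6, 12 and 11 of the same genes were higher, with medians of -0.07, 0.20 and 0.02. The only call among these lists was Tac2, described above with the habenula, beside 0.182% of all tested genes. Neurog2, a proneural factor of intermediate progenitors, averaged 0.956 ± 0.444 CPM in treated libraries and 0.438 ± 0.182 CPM in controls (SD, n = 14 and 5), with a log2 fold change of 1.12 (SE 0.41, edgeR adjusted p = 0.53). Sox11, a factor of immature neurons, had 0.40 (edgeR adjusted p = 0.785). Mki67, a marker of cycling cells, had 0.17 (SE 0.22, edgeR adjusted p = 0.999) and 1.14 without the Ttr-rich libraries (edgeR adjusted p = 0.334). The median of 15 granule neuron genes was -0.18 with all libraries and 0.59 without the Ttr-rich ones, when 12 of 15 were higher. Only control replicates 1 and 3 remained as controls in that fit. Replicate 3 had the lowest granule neuron sum of the 19 libraries, at 609 CPM.

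Pathways named for exercise or the drug gave few calls. Igf1, a growth factor, had a log2 fold change of 0.41 and Bdnf, the neurotrophin, 0.47 (edgeR adjusted p = 0.344 and 0.976). Of 28 BMP genes 11 were higher and 2 were called lower, beside 0.182% of all genes. These were the antagonists Sostdc1 and Wfikkn2, with log2 fold changes of -0.05 and -0.68 without the Ttr-rich libraries. Of 32 Wnt genes 10 were higher and 0 called (median -0.11), and the secreted Wnt inhibitor Wif1 had -1.62 (edgeR adjusted p = 0.0643), with 12.3 CPM in control replicate 4. Of 7 metabotropic glutamate receptors 5 were higher (median 0.08), of 23 immediate early genes 11 (median -0.01) and of 17 circadian clock genes 11 (median 0.08). Hrk, a proapoptotic member of the Bcl2 family, had -1.61 for BCI-838, -0.28 for exercise and -0.60 for both, and -0.83 averaged (edgeR adjusted p = 0.126).

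Several glial and vascular lists had other signs without the Ttr-rich libraries. Homeostatic microglia genes were higher in 15 of 17 cases with a median of 0.11, which became 9 of 17 and 0.01 without the Ttr-rich libraries. Plaque-responsive microglia genes were higher in 11 of 22 cases (median 0.02), astrocyte genes in 12 of 15 (median 0.04) and endothelial genes in 14 of 17 (median 0.08). Without those libraries, 6 of 15 astrocyte genes (median -0.07), 6 of 17 endothelial genes (median -0.02) and 9 of 22 plaque-responsive genes (median -0.07) were higher. Oligodendrocyte and myelin genes were higher in 10 of 14 cases with all libraries (median 0.03) and in 0 of 14 without the Ttr-rich ones (median -0.32). Oligodendrocyte precursor genes were higher in 5 of 10 (median 0.03) and 2 of 10 cases (median -0.21) in the same fits. None of these 6 lists held a call with all libraries. Without the Ttr-rich libraries the controls left were replicates 1 and 3. Their myelin list summed to 6914 and 10360 CPM, within a control range of 4561 to 10360 CPM. Cd300a, an inhibitory receptor of myeloid cells, and Lyz2, lysozyme, had log2 fold changes of 0.66 and -0.36 (edgeR adjusted p = 0.271 and 0.439).

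Synaptic and housekeeping lists differed more among the treatments than on average. Postsynaptic genes had a median of -0.12 for BCI-838, -0.02 for exercise and 0.22 for both, and 18 of 31 (58.1%) had an unadjusted p under 0.05 among the treated groups, against 21.2% of all genes. Cytosolic ribosomal protein genes had a median of -0.10 for BCI-838, 0.16 for exercise and -0.10 for both, with 46 of 61 (75.4%) at that threshold. Their summed level was 15031, 14838, 11315, 10198 and 13496 CPM in the exercise libraries, so replicates 1, 2 and 5 lay above all controls (10454 to 12726 CPM) and replicates 3 and 4 did not. The 2 measured rRNA-like loci had medians of 0.06 for BCI-838, -0.64 for exercise and -0.01 for both, and their part in this difference was not tested. The any-treatment median of the ribosomal protein genes was -0.02, with 49 of 61 lower. Respiratory chain genes had medians of -0.08, 0.14 and -0.02 in the same order of treatments. The dorsal midbrain and thalamus list moved among the treatments too, with medians of 0.65 for BCI-838, 0.00 for exercise and -1.03 for both. Its part in the differences of single lists was not tested.

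**Figure D5:**
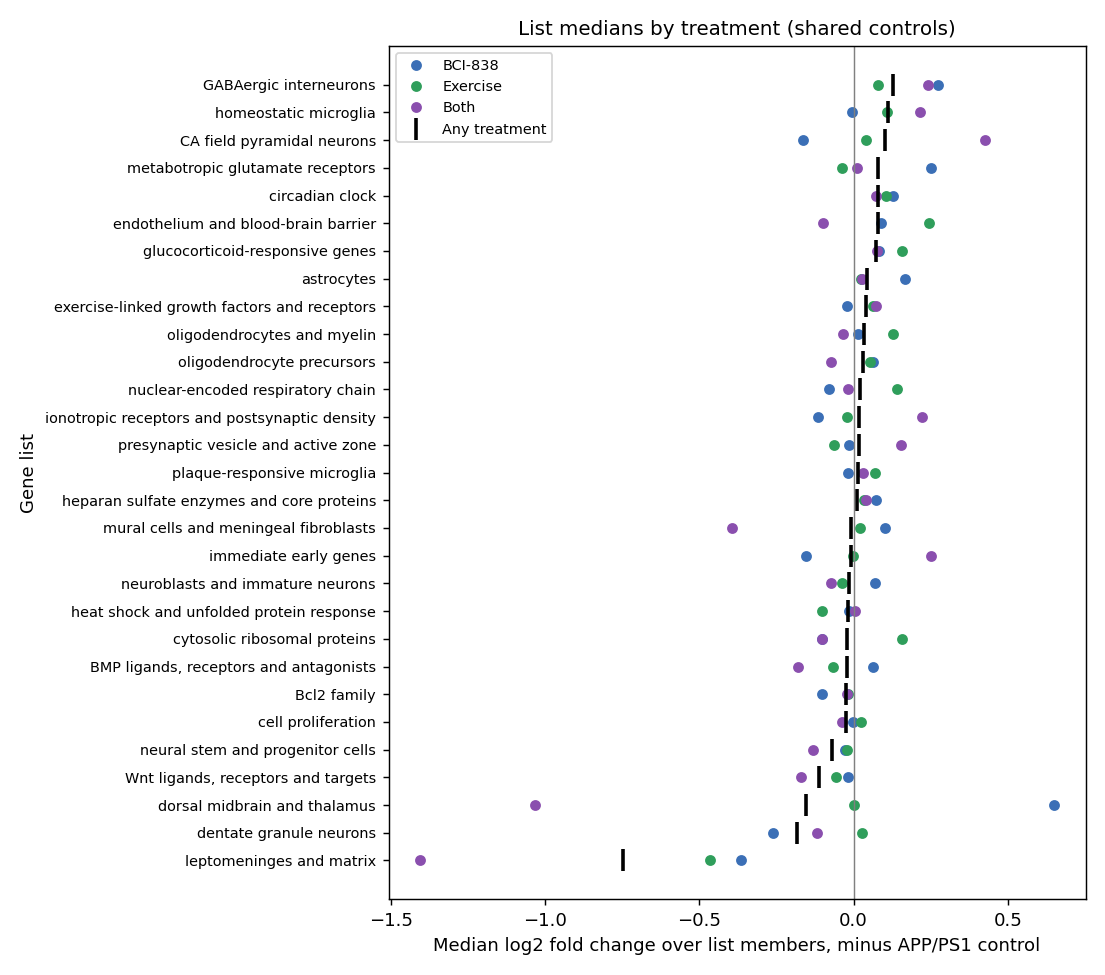
Median log2 fold change of the members of each gene list for BCI-838, exercise and both against the same 5 APP/PS1 controls (points) and for the average of the treatments (black ticks), on a linear axis. Most any-treatment medians lie close to 0, the leptomeninges and matrix list lies at -0.75, and the dorsal midbrain list spans 0.65 to -1.03; the choroid plexus, cilia, habenula, erythroid and rRNA-like lists are left out.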

How the data were processed

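RNA sequencing counted reads per gene in the dentate gyrus. The authors deposited whole-number counts for the whole series; per the submitters' processing notes STAR, HTSeq and DESeq were used with the mouse build mm10. For versions, read layout and strand the setting was not given in the sources used here. Of counts between 1 and 20, 68.5% were even, and the cause was not tested. A second deposited table of normalised values was not used. No pair of libraries agreed within sampling noise (lowest chi-square per gene 18.7).

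Libraries were grouped by their labels. Genes were kept with filterByExpr (minimum count 10, minimum total 15) and scaled with TMM. One model held 4 group means over 19 libraries, and the contrast gave each treated group equal weight. Tests came from edgeR 4.0.16 (glmQLFit with robust dispersions and glmQLFTest, R 4.3.3) with Benjamini-Hochberg adjustment over all tested genes, called under 0.05. Each standard error is |log2 fold change| over √F. Exact permutation tests enumerated all 11628 regroupings in Python 3.11.15. Alternatives used limma 3.58.1, DESeq2 1.42.0, sva 3.50.0, other filters and scalings, a replicate block, covariates, all 24 libraries and each library or treated group left out. The edgeR fit was tested on simulated data. p-values rest on the spread between mice, and errors are SDs over libraries.

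The members and gene lists were chosen with earlier results of these data known. Named genes were up to 12 calls per direction by smallest p, leaving out predicted names. With fewer than 10 called, the next by p were added to 10. Also named were the 5 per direction with the smallest p under the choroid plexus covariate and genes whose groups do not overlap. The 5 with the smallest p among treated groups, App, Prnp, Grm2, Grm3, Sulf1 and up to 2 per list completed them. All other genes named were chosen after their values were seen, as were the cilia, habenula and leptomeninges lists. The result of 1 gene chosen by this rule is not reported here. The replicate numbers do not pair the libraries. Gene positions, promoters and current symbols are from RefSeq GRCm38.p6, the assembly that mm10 names.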

Additional observations from a re-analysis of the deposited data

Results flagged for a closer look

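In groups of 4 or 5 libraries, 1 library stood apart from the rest of its group by Dixon's 95% criterion for 39 of 444 gene and group pairs tested over 111 genes. Chance flags about 1 in 20 groups. Replicate 5 of the combined group was high in 13 genes of choroid plexus, cilia and neighbouring lists, at 297 CPM for Ttr, 4.46 for F5, 4.50 for Col8a2, 2.01 for Kcnj13, 1.97 for Kcne2, 1.59 for Cldn2, 1.35 for Calml4, 0.569 for Steap1, 1.99 for Gm216, 1.95 for 4932425I24Rik, 0.949 for Dynlrb2, 0.892 for Akd1 and 0.19 for 1700024G13Rik. In the same group, replicate 2 was high in Pou4f1 (0.745 CPM) and Gm5741 (0.776 CPM) and low in App (3350 CPM), replicate 3 was high in Penk (213 CPM) and replicate 4 low in Amigo2 (14.2 CPM).

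Among the exercise libraries, replicate 4 was high in Gpr151 (4.78 CPM), Pou4f1 (7.81 CPM) and Doc2a (31.3 CPM) and low in Mcm6 (15.1 CPM), and replicate 2 was low in Arhgap25 (1.67 CPM). Among the BCI-838 libraries, replicate 1 was low in Col8a2 (0.708 CPM) and high in Kcne2 (0.318 CPM) and 1700027A23Rik (0.0531 CPM), replicate 2 was high in Grm2 (101 CPM) and low in Kcnj13 (0.292 CPM), and replicate 4 was high in Slc5a7 (1.03 CPM), Acsbg1 (179 CPM) and Egr2 (0.411 CPM).

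Among the APP/PS1 controls, replicate 4 was high in Gpr151 (72.4 CPM), Gm216 (6.13 CPM) and Ccdc108 (27.4 CPM). Replicate 3 was high in Arhgap25 (11.4 CPM), Kcnf1 (152 CPM) and Grik3 (173 CPM), replicate 5 in Slco1a4 (50.8 CPM) and replicate 1 in Itm2a (44.9 CPM).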

How the results depend on the processing

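The count of any-treatment calls was 33 with DESeq size factors and 27 with each treated library of equal weight, 5 with no filter on low counts, 1 with at least 1 CPM in at least 5 libraries, 156 with DESeq2, 3 with limma voom, 73 with all 24 libraries (31 shared with the 33), 0 with the choroid plexus covariate, 9 with a dorsal midbrain covariate, 1 with a surrogate variable, 1 without the libraries over 100 Ttr CPM, 0 without those over 10 Gpr151 CPM (an alternative chosen after seeing the data), 1 without the BCI-838 group, 0 without the exercise group and 14 without the combined group. With 1 library left out it ran between 1 and 154. Calls among the treated groups came to 0 in the main fit, 4712 with voom, 1 with all 24 libraries, 2 with the choroid plexus covariate, 55 with a surrogate variable, 1 without the Ttr-rich libraries and between 0 and 611 with 1 library left out. Where the cause of a moved count is not named, the cause was not tested.

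A replicate block left 1 any-treatment call, Sulf1 (adjusted p = 0.00713), and gave 69 calls among the treated groups. Same-numbered libraries correlated between -0.26 and 0.397 in their deviations from group means (27 pairs, 8 above 0.1), and 5 of 19 libraries correlated best with their own number, so the numbers are not a pairing.

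Directions reversed (log2 fold changes) without the Ttr-rich libraries for Chrnb4 (0.13), Gpr151 (0.57), Kcne2 (0.37), 1500015O10Rik (0.88), Gm5741 (0.041), Tac2 (0.020), Grm2 (0.17), Grm3 (-0.31), App (-0.029), Prnp (-0.020), Zic1 (0.39), Amigo2 (0.15), Gad1 (-0.0069), Acsbg1 (-0.071), Mog (-0.23), Aspa (-0.097), Cspg4 (-0.18) and Mcm6 (0.17). With the choroid plexus covariate, built from a list that holds Ttr and Kcne2, directions reversed for Ttr (0.16), Kcne2 (0.48), 1500015O10Rik (0.56), Prnp (-0.026) and Grm3 (-0.15). In that fit they also did so for Zic1 (0.11), Amigo2 (0.058), Mog (-0.086), Lars2 (0.13) and Mir5105 (0.061). Without the Gpr151-rich libraries they did for Chrnb4 (0.034), App (-0.041), Prnp (-0.037), Grm3 (-0.078), Zic1 (0.25), Cspg4 (-0.020) and Lars2 (0.019). Without the combined group they did for Onecut2 (-0.010), App (-0.0074) and Prnp (-0.017), without the exercise group for Lars2 (0.0062) and Mir5105 (0.029), and with a surrogate variable for Mog (-0.049) and Aspa (-0.057). With 1 library left out, values ran from -0.197 to 0.0618 for Pknox2, -0.024 to 0.0534 for Prnp, -0.0196 to 0.309 for Grm3, -0.0394 to 0.276 for Mog, -0.0363 to 0.206 for Aspa and -0.426 to 0.00466 for Grik3.

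Every call but Sulf1 was lost when certain single libraries, treated or control, were left out. Genes under 1 CPM rest on few reads.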

Other observations

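The 5 WT libraries, which the comparison itself did not use, give a level outside the comparison for the genes it called. WT levels come from a scaling of all 24 libraries together, and APP/PS1 levels from a scaling of the 19 APP/PS1 libraries. Sulf1 had a range of 3.16 to 8.21 CPM in treated and 6.75 to 26.2 CPM in untreated APP/PS1 libraries, against 3.24 to 7.51 CPM in WT libraries. The WT range of Sulf1 overlapped both. Slc13a4 ranged from 1.53 to 11.5 CPM and Slc6a13 from 2.75 to 16.0 CPM in WT libraries, and both ranges overlapped the untreated APP/PS1 libraries. Ttr ranged from 3.49 to 15.6 CPM, Gpr151 from 0.297 to 15.9 CPM and Chrnb4 from 0 to 4.19 CPM in WT libraries.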
